A study of Oryza sativa with 23 samples.

Results

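The Aux/IAA proteins of rice are short-lived nuclear repressors of the auxin response. At low auxin they bind the auxin response factors (ARFs), which sit on auxin response elements in promoters, and recruit corepressors of the TOPLESS type. When auxin rises, the hormone joins an Aux/IAA protein to an F-box receptor of the TIR1/AFB class, the repressor is degraded and the ARF is released. Many Aux/IAA genes are themselves induced by auxin, and in rice roots members of the family take part in lateral root formation, the upkeep of the quiescent centre and gravitropism. The family has 31 loci, OsIAA1 to OsIAA31, and its members were taken by locus identifier. A probe was found for 30 of the 31 loci among 52901 probes, 1 for each locus, and OsIAA5 (LOC_Os01g48450) was not analysed here. Published numbering of the family was followed, and the RefSeq gene table for assembly ASM3414082v1 holds an IAA synonym for 28 of the 31.

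The study compared roots of 4 rice genotypes, well watered or droughted, at 25 days after sowing, with plants raised in cylinders of soil in a screenhouse. IR64 is a lowland variety, and OsNAM Event 2 is 1 transgenic event in IR64 that overexpresses the Way Rarem allele of OsNAM12.1, a NAC transcription factor gene. The promoter that drives the transgene is not given in the sources used here. Vandana is an upland variety, and 481-B is a near isogenic line of Vandana with the Way Rarem segment of qDTY12.1, a locus for grain yield under drought that contains OsNAM12.1. In the well-watered treatment 481-B and Vandana were kept at field capacity (a multiple of 1) and the lines of IR64 background above it (a multiple of 1.2), so that background and soil water cannot be told apart in a comparison of well-watered groups. The same holds when drought responses are compared between backgrounds, since each response starts from its well-watered group. Droughted soil dried down from 75% of field capacity in every genotype. Each group had 3 arrays, with the exception of well-watered OsNAM Event 2, which had 2 (replicates 1 and 3), giving 12 drought and 11 well-watered arrays. The sources name roots of different plants as the replicates and do not state whether RNA of several plants was combined, so p-values measure the spread between these arrays.

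Signals were 1-colour intensities on a log2 scale after quantile normalization, which gives every array the same distribution. A difference of 1 is thus a 2-fold difference. Levels of different probes were not compared with each other, since brightness depends on the probe. A probe was called when limma's moderated test, run over all probes and all 23 arrays, gave a Benjamini-Hochberg adjusted p below 0.05. The share of spots that the scanner software flagged as well above background ranged from 31.64% to 64.18% by array, and from 39.29% to 61.0% in drought arrays. Treatments thus overlapped in this respect over all genotypes, but not within OsNAM Event 2. There the drought arrays stood at 57.24%, 50.21% and 56.27%, and the well-watered arrays at 44.11% and 43.76%. In bulk roots, fewer cells of a type and less RNA per cell cannot be told apart.

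One array did not match its label. Over 318 probes that separate the IR64 and Vandana backgrounds, the array labelled Vandana well watered replicate 2 lay nearer the IR64 background for 316 (99.4%), whereas every other array of Vandana or 481-B did so for 0 to 11. The main counts of called members and partner genes that rest on the mismatched array are given with and without it. Other values, such as fitted differences and counts of shared sign or overlap, include it unless stated. Known drought genes moved as labelled: OsLEA3-1 and RAB16A, late embryogenesis abundant genes, were 5.86 ± 0.294 and 5.88 ± 0.316 log2 units (± SE) higher under drought over the 4 genotypes. OsNAM12.1 read 0.67 ± 0.51 higher in OsNAM Event 2 than in IR64 under drought and 0.39 ± 0.57 higher when well watered, and neither difference was called. Under drought OsNAM12.1 was lower in all 4 genotypes, with a mean difference of -0.82 ± 0.263 (limma adjusted p = 0.0273). Of 3 root genes, the silicon transporters Lsi1 and Lsi2 and the root-specific gene RCc3, at least 2 were well above background on each array. RCc3 was lower under drought by 2.18 ± 0.416, while Lsi1 (0.75 ± 0.266) and Lsi2 (1.27 ± 0.361) were higher. All 3 were called, but without Vandana well watered replicate 2 only 2 were, 1 higher and 1 lower. Of 7 genes of green tissue, which roots should lack, 3 to 7 were well above background on each array and none was called between treatments. The log2 of their summed signal ran from 7.25 to 16 in drought arrays and from 8.61 to 14.4 in well-watered ones.

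Most of the family was expressed in these roots. Of the 30 probes, 18 were well above background on all 23 arrays, 10 on some arrays and 2, OsIAA15 and OsIAA28, on none. OsIAA29 passed on 1 array only, well-watered 481-B replicate 2, where it read 4.12 against 1.08 to 1.66 on all other arrays. For 27 probes there was a group in which no array fell short of this mark.

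Members of the family moved in both directions under drought. For the mean drought difference over the 4 genotypes, 15 of 30 Aux/IAA probes were called (50.0%), 6 higher and 9 lower. Of all 52900 probes tested in this comparison 26.5% were called, 14.2% higher and 12.3% lower. Among probes that met this mark on all arrays of some group, the shares were 43.7%, 23.8% and 19.9%, and of the 27 members that met it 15 were called (55.6%), 22.2% higher and 33.3% lower. Higher under drought were OsIAA2, OsIAA4, OsIAA9, OsIAA18, OsIAA19 and OsIAA20. Lower were OsIAA6, OsIAA12, OsIAA13, OsIAA14, OsIAA16, OsIAA22, OsIAA27, OsIAA30 and OsIAA31. The median difference over the 30 probes was -0.10, against -0.06 over all probes. The sign was the same in all 4 genotypes for 20 of 30 (66.7%), 8 higher and 12 lower, where 44.3% of all probes shared a sign, 20.7% higher and 23.6% lower. OsIAA8, counted among the 12, was 0.08 higher under drought in Vandana without the array that did not match its label. The 12 drought and 11 well-watered arrays did not overlap for 3 members, OsIAA20, OsIAA22 and OsIAA31, against a background of 2.17% of probes. By the rule in the study's methods, more than 2-fold with a Bonferroni-adjusted p below 0.05, 4 members were called, OsIAA20, OsIAA22, OsIAA30 and OsIAA31, and 1.95% of all probes. Without the Vandana array that did not match its label 16 members were called, OsIAA11 and OsIAA25 being gained and OsIAA27 lost.

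**Figure D1:**
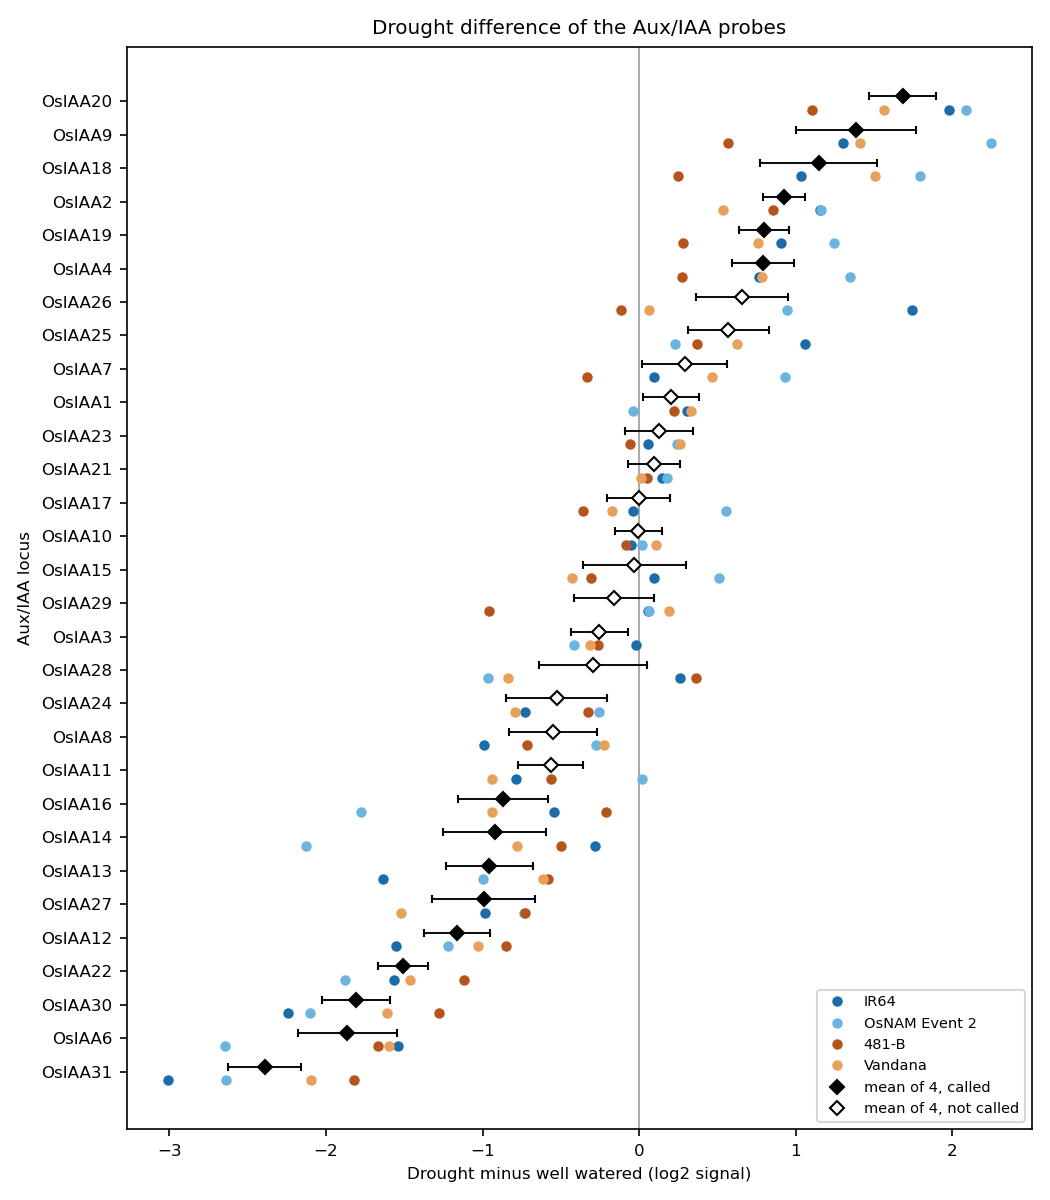
Drought minus well-watered signal (log2) for each of the 30 Aux/IAA probes, ordered by the mean over 4 genotypes (black diamonds, bars are the SE, filled where called), with the difference in each genotype as a coloured point. OsIAA31 (-2.39) lies at the bottom and OsIAA20 (1.68) at the top.

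OsIAA31 (LOC_Os12g40900) had the largest fall of the family. OsIAA31 signal in IR64 was 11.23, 11.71 and 11.53 in the well-watered replicates and 8.43, 9.29 and 7.74 under drought. OsIAA31 in OsNAM Event 2 read 11.37 and 11.64 well watered and 8.08, 9.80 and 8.71 under drought. The well-watered arrays of both lines were close together, and the drought arrays were lower and more spread out. OsIAA31 in 481-B went from 11.41, 11.39 and 11.86 to 10.08, 9.24 and 9.87. OsIAA31 in Vandana went from 11.28, 11.31 and 11.34 to 8.20, 9.74 and 9.70. No drought array reached the lowest well-watered array in any genotype. Over the 4 genotypes OsIAA31 was lower by 2.39 ± 0.235 (SE), a 5.24-fold difference (limma adjusted p = 1.88e-06), and within the 4 slides the difference between drought and well-watered arrays ran from -3.04 to -1.92. The -3.04 came from slide 4, with only 1 drought array (Vandana) and 1 well-watered array (IR64). Genotype and treatment cannot be told apart there, and the other slides ran from -2.62 to -1.92.

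The neighbouring locus number, OsIAA30 (LOC_Os12g40890), fell as well. OsIAA30 signal in IR64 was 7.83, 8.36 and 8.44 well watered and 5.98, 6.47 and 5.45 under drought. OsIAA30 in OsNAM Event 2 read 8.53 and 8.80 well watered and 6.16, 7.33 and 6.21 under drought. OsIAA30 in Vandana was 8.06, 8.26 and 8.66 well watered and 6.04, 7.05 and 7.06 under drought. In these 3 genotypes the treatments were well apart. OsIAA30 in 481-B read 8.19, 8.69 and 8.41 well watered and 6.61, 6.69 and 8.17 under drought, so that 1 of its drought arrays stood beside the well-watered ones. That array, 481-B drought replicate 3, also had the highest summed signal of the green tissue genes of all arrays (16 on the log2 scale), and the part of this in its OsIAA30 value was not tested. The mean fall was 1.81 ± 0.218, 3.50-fold (limma adjusted p = 1.61e-05).

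OsIAA22 (LOC_Os06g24850) fell in all 4 genotypes. OsIAA22 signal in IR64 was 8.31, 8.83 and 9.02 well watered and 7.11, 7.56 and 6.80 under drought. OsIAA22 in OsNAM Event 2 read 8.93 and 9.20 against 6.82, 7.77 and 6.96. The treatments lay more than 1 log2 unit apart in OsNAM Event 2 and by less in IR64. OsIAA22 in 481-B read 8.46, 8.85 and 9.06 against 7.75, 7.38 and 7.87. OsIAA22 in Vandana read 8.62, 8.88 and 8.90 against 6.80, 7.83 and 7.38. All 12 drought arrays were below all 11 well-watered ones, and the mean difference was -1.51 ± 0.157, 2.84-fold (limma adjusted p = 3.45e-06), the smallest SE among the 5 leading falls.

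OsIAA6 (LOC_Os01g53880), for which a role in drought tolerance and tillering has been described in rice, fell by 1.86 ± 0.316 on a dim probe (limma adjusted p = 0.000371), a mean that includes 1 group with no array well above background. OsIAA6 signal in IR64 was 4.23, 4.50 and 4.67 well watered and 1.23, 4.40 and 3.15 under drought. Here the treatments overlapped, and well-watered replicate 3 and drought replicates 1 and 2 were not well above background. OsIAA6 in OsNAM Event 2 read 5.70 and 5.45 well watered and 3.09, 3.13 and 2.56 under drought, all 3 drought arrays being not well above background. The fitted fall of OsIAA6 in that line was 2.65 ± 0.686 (6.26-fold). With no drought array there well above background, its size is uncertain. OsIAA6 in 481-B was 5.01, 5.43 and 5.08 well watered and 3.90, 3.14 and 3.47 under drought, with replicate 2 of the latter not well above background. OsIAA6 in Vandana was 4.82, 4.90 and 6.95 well watered and 3.45, 4.46 and 3.98 under drought. Apart from IR64, the treatments did not overlap within a genotype.

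OsIAA12 (LOC_Os03g43410), known in rice for an effect on leaf inclination, fell by 1.16 ± 0.212, 2.24-fold (limma adjusted p = 0.000669). OsIAA12 signal in IR64 was 9.21, 9.03 and 9.20 well watered and 7.51, 8.41 and 6.88 under drought. OsIAA12 in OsNAM Event 2 read 9.19 and 9.36 against 7.42, 8.96 and 7.78. The well-watered arrays of both lines were close together, and drought replicate 2 of each was nearest to them. OsIAA12 in 481-B read 9.29, 8.61 and 9.21 against 8.30, 8.47 and 7.78. OsIAA12 in Vandana read 9.35, 9.03 and 9.36 against 7.49, 8.72 and 8.43. The treatments did not overlap within any genotype, but the highest drought array of all (8.96) was above the lowest well-watered one (8.61).

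**Figure D2:**
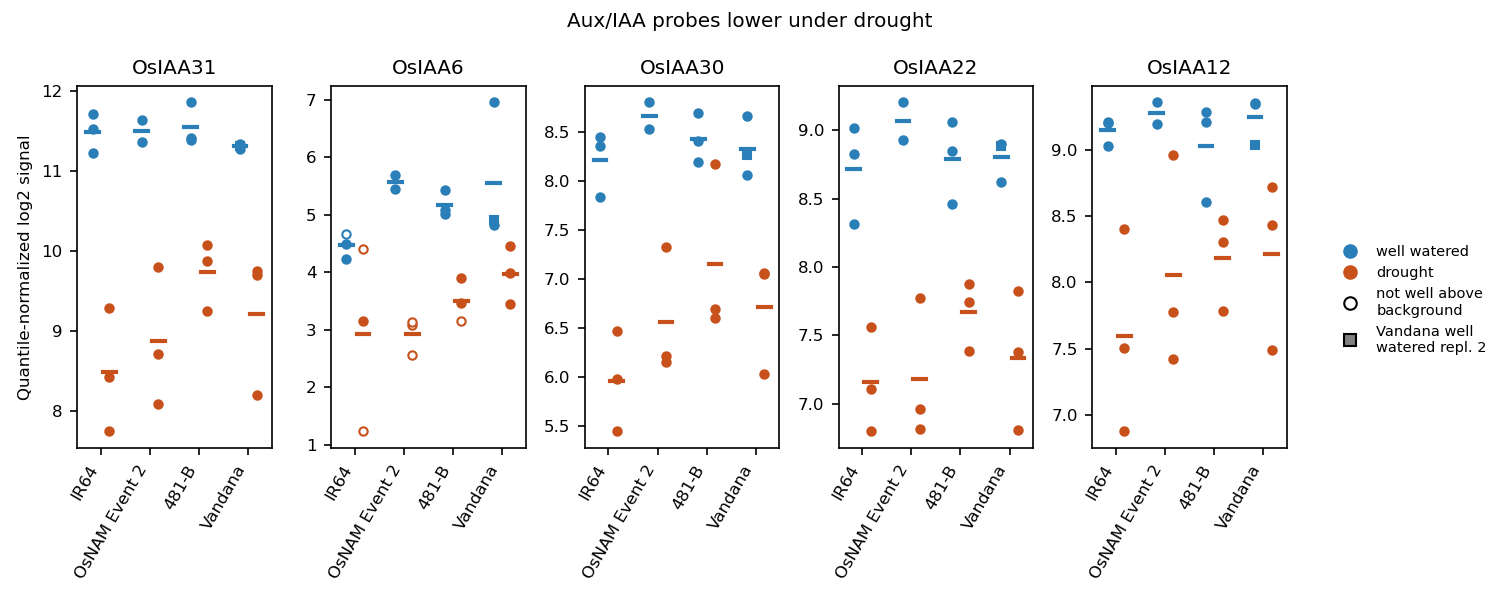
Quantile-normalized log2 signal on each array for the 5 Aux/IAA probes with the largest falls, by genotype, well watered (blue) and under drought (orange), with bars at group means, open symbols for arrays not well above background and a square for Vandana well watered replicate 2. OsIAA31 drought arrays sit between 7.74 and 10.08, below all well-watered arrays (11.23 to 11.86).

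OsIAA20 (LOC_Os06g07040) had the largest rise. Overexpression of this gene has been reported to raise tolerance to drought and salt in rice. OsIAA20 signal in IR64 was 7.19, 6.26 and 6.98 well watered and 9.04, 8.73 and 8.60 under drought. OsIAA20 in OsNAM Event 2 read 6.69 and 7.09 against 8.51, 8.92 and 9.49. In both lines the drought arrays were more than 1 log2 unit above the well-watered ones. OsIAA20 in 481-B was 7.10, 5.70 and 7.49 well watered and 8.13, 7.97 and 7.50 under drought. OsIAA20 in Vandana was 7.07, 6.77 and 5.91 well watered and 8.20, 8.38 and 7.87 under drought. The gap was narrowest in 481-B, where the lowest drought array and the highest well-watered array were nearly equal. The mean rise was 1.68 ± 0.213, 3.21-fold (limma adjusted p = 2.61e-05).

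OsIAA9 (LOC_Os02g56120), which altered root gravitropism when expressed in Arabidopsis, rose by 1.38 ± 0.384, 2.61-fold (limma adjusted p = 0.0129), with the largest SE of the family. OsIAA9 signal in IR64 was 5.55, 4.91 and 4.76 well watered and 6.15, 5.77 and 7.21 under drought. OsIAA9 in OsNAM Event 2 read 4.86 and 4.76 against 6.43, 7.54 and 7.21. These 2 lines were separated by treatment, most widely OsNAM Event 2, although well-watered replicate 3 of IR64 was not well above background. OsIAA9 in 481-B was 4.81, 4.32 and 4.82 well watered and 5.13, 4.76 and 5.78 under drought. OsIAA9 in Vandana was 4.80, 5.11 and 1.46 well watered and 6.59, 4.43 and 4.58 under drought. Both of these overlapped, and the value of 1.46 came from well-watered replicate 3, the array with the fewest spots well above background (31.64%), where this probe was not well above background.

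OsIAA18 (LOC_Os05g44810), another member whose overexpression raises drought and salt tolerance, rose by 1.15 ± 0.372, 2.21-fold (limma adjusted p = 0.03). OsIAA18 signal in IR64 was 5.63, 5.35 and 3.74 well watered and 5.12, 6.34 and 6.37 under drought. OsIAA18 in OsNAM Event 2 read 2.69 and 5.35 against 6.45, 5.46 and 5.54. OsIAA18 in 481-B read 5.12, 5.63 and 5.31 against 5.29, 5.31 and 6.21. The values of 3.74 and 2.69 were not well above background. OsIAA18 in Vandana was 5.04, 5.53 and 2.94 well watered and 6.92, 5.44 and 5.67 under drought, the 2.94 again on the dim replicate 3 and not well above background. Among the arrays that measured OsIAA18 the treatments overlapped in IR64, 481-B and Vandana, and the call was lost in 6 of 23 fits that left out 1 array, with an adjusted p of up to 0.123 and a difference of 0.81 to 1.48. Those 6 were IR64 drought and well watered replicate 3, 481-B drought replicate 3, OsNAM Event 2 drought and well watered replicate 1, and Vandana drought replicate 1.

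The remaining leading rises were smaller and on steadier probes. OsIAA2 (LOC_Os01g09450) rose by 0.93 ± 0.134, 1.90-fold (limma adjusted p = 8.89e-05), and had the smallest SE of the family. OsIAA2 signal in IR64 was 6.06, 6.08 and 6.38 well watered and 7.33, 7.45 and 7.19 under drought. OsIAA2 in OsNAM Event 2 read 6.22 and 6.28 against 7.51, 7.63 and 7.09. The spread within a group was small beside the difference in both lines. OsIAA2 in 481-B read 6.63, 6.66 and 6.20 against 7.35, 7.74 and 6.96. OsIAA2 in Vandana read 6.29, 6.56 and 6.77 against 6.50, 7.47 and 7.27. Drought replicate 1 of Vandana was the only 1 of 12 drought arrays that was not above every well-watered array.

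OsIAA19 (LOC_Os05g48590) rose by 0.80 ± 0.161, 1.74-fold (limma adjusted p = 0.00154). OsIAA19 signal in IR64 was 9.13, 8.84 and 8.36 well watered and 9.81, 9.38 and 9.85 under drought. OsIAA19 in OsNAM Event 2 read 8.56 and 8.21 against 9.60, 9.51 and 9.78. Both lines were separated by treatment. OsIAA19 in 481-B was 8.94, 9.03 and 8.78 well watered and 9.02, 9.08 and 9.49 under drought. OsIAA19 in Vandana was 9.07, 8.70 and 7.61 well watered and 9.46, 9.40 and 8.80 under drought. In 481-B and Vandana the treatments overlapped.

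**Figure D3:**
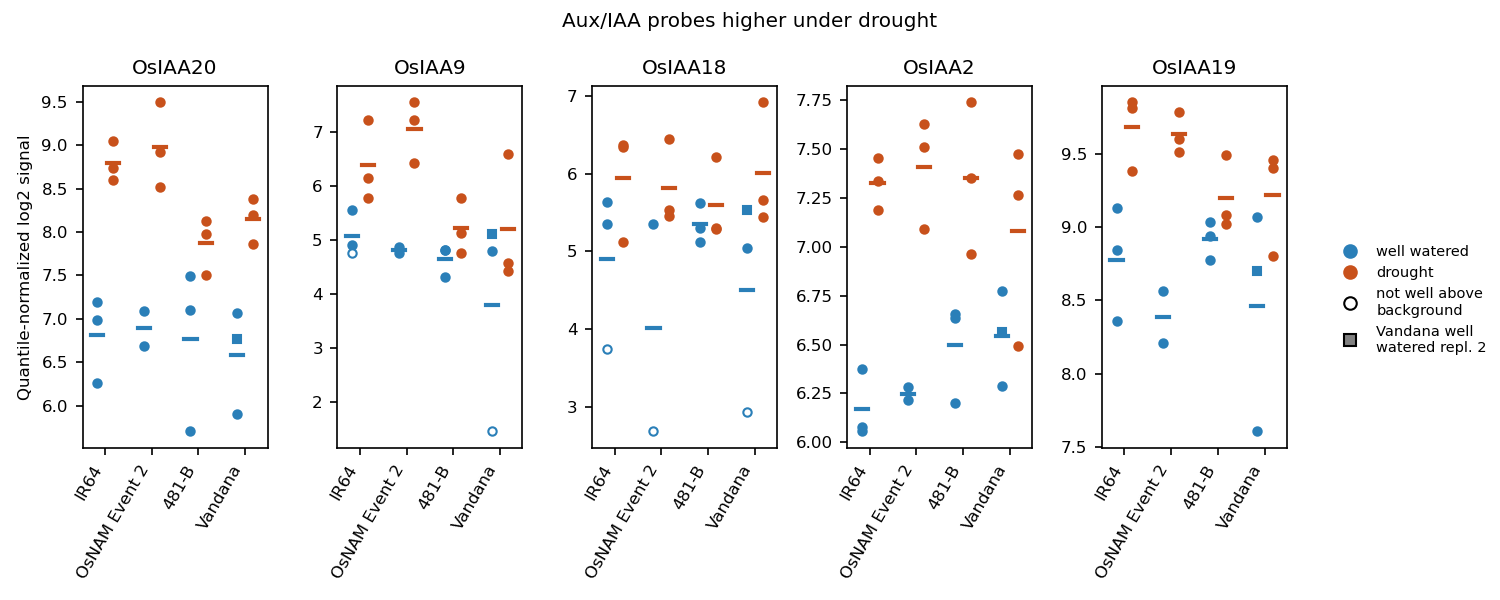
Quantile-normalized log2 signal on each array for the 5 Aux/IAA probes with the largest rises, by genotype, well watered (blue) and under drought (orange), with bars at group means, open symbols for arrays not well above background and a square for Vandana well watered replicate 2. OsIAA20 drought arrays sit between 7.50 and 9.49 and well-watered arrays between 5.70 and 7.49.

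Each other called member changed by less than the leading members of its own direction. OsIAA4, which affects tiller angle when overexpressed in rice, rose by 0.79 ± 0.199 on a probe well above background on 18 arrays and on none in well-watered OsNAM Event 2, with drought arrays at 4.38 to 5.31 (median 4.50) and well-watered arrays at 3.00 to 4.58 (median 4.11). OsIAA13 (LOC_Os03g53150), in which a dominant mutation reduces lateral roots, fell by 0.96 ± 0.278 (limma adjusted p = 0.0168). OsIAA13 signal in IR64 was 11.69, 11.42 and 11.35 well watered and 9.74, 10.86 and 8.95 under drought. OsIAA13 in OsNAM Event 2 read 11.28 and 11.49 against 9.85, 11.26 and 10.06, so that drought replicate 2 stood beside the well-watered arrays. The treatments overlapped in the other two genotypes. OsIAA13 in 481-B was 11.32, 10.37 and 11.63 well watered and 10.58, 10.81 and 10.19 under drought. OsIAA13 in Vandana was 11.44, 10.60 and 11.46 well watered and 9.33 and 10.85 in drought replicates 1 and 3, with drought replicate 2 just above the highest of the well-watered arrays.

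Calls for OsIAA14, OsIAA16 and OsIAA27 were near the threshold. OsIAA14 fell by 0.92 ± 0.33 (limma adjusted p = 0.0476) and lost its call in 15 of 23 fits that left out 1 array, OsIAA16 by 0.87 ± 0.287 (adjusted p = 0.0327) with 12 lost, and OsIAA27 by 0.99 ± 0.33 (adjusted p = 0.0337) with 11 lost. Drought arrays of OsIAA27 ran from 3.51 to 6.24 (median 4.16) and well-watered arrays from 4.64 to 7.11 (median 5.06). The highest of each treatment came from 481-B, drought replicate 3 and well watered replicate 2, and these arrays were also the highest of the 2 treatments for OsIAA24 (9.42 and 8.99). Green tissue genes summed to 16 on the former and 14.3 on the latter, and their part in these values was not tested.

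The other 15 members were not called. OsIAA11 (LOC_Os03g43400), whose dominant mutant lacks lateral roots, was 0.57 ± 0.207 lower (limma adjusted p = 0.052) and was called in 7 of 23 fits that left out 1 array. OsIAA11 signal in IR64 was 6.13, 5.48 and 5.38 well watered and 4.81, 5.38 and 4.45 under drought. OsIAA11 in OsNAM Event 2 read 5.13 and 5.84 against 5.22, 6.18 and 5.12. The difference in that line was 0.02 ± 0.45, and the treatments overlapped in every genotype. Well-watered replicate 3 of IR64 was not well above background for this probe. OsIAA11 in 481-B was 5.89, 5.34 and 5.79 well watered and 5.56, 4.84 and 4.93 under drought. OsIAA11 in Vandana was 5.88, 5.36 and 6.77 well watered and 4.49, 5.48 and 5.22 under drought.

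OsIAA23 (LOC_Os06g39590), needed for upkeep of the quiescent centre of the rice root, differed by 0.13 ± 0.215 (limma adjusted p = 0.72). OsIAA23 signal in IR64 was 6.80, 7.07 and 7.26 well watered and 7.63, 7.24 and 6.43 under drought. OsIAA23 in OsNAM Event 2 read 6.68 and 7.47 against 7.15, 7.71 and 7.09. The treatments overlapped in all 4 genotypes. OsIAA23 in 481-B read 7.74, 6.82 and 7.51 against 7.96, 7.62 and 6.32. OsIAA23 in Vandana read 7.72, 6.80 and 6.92 against 7.01, 7.61 and 7.61. The lowest difference among the other members not called was -0.55 ± 0.28 (OsIAA8). OsIAA1, which interacts with OsARF1 in rice, stood at 0.20 ± 0.176. OsIAA26, with a fitted difference of 0.66 ± 0.293, was well above background on 13 arrays, among them 1 of the 3 in well-watered Vandana and none in well-watered IR64 or OsNAM Event 2.

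Within single genotypes fewer members passed the test. In IR64 there were 6 of 30 (20%), against 4.99% of all probes (3.16% higher and 1.83% lower) and 8.42% of probes well above background in a group: OsIAA2 (1.15 ± 0.259) and OsIAA20 (1.98 ± 0.413) rose, and OsIAA12 (-1.55 ± 0.41), OsIAA22 (-1.56 ± 0.30), OsIAA30 (-2.24 ± 0.42) and OsIAA31 (-3.01 ± 0.456) fell. In OsNAM Event 2 there were 7 (23.3%), against 8.16% of all probes (5.19% higher and 2.97% lower) and 13.3% of probes well above background in a group. OsIAA2 (1.16 ± 0.29), OsIAA19 (1.24 ± 0.35) and OsIAA20 (2.08 ± 0.46) rose. OsIAA22 (-1.88 ± 0.34), OsIAA30 (-2.10 ± 0.47), OsIAA31 (-2.64 ± 0.51) and OsIAA6 (-2.65 ± 0.686, no drought array well above background) fell. In 481-B limma called 0 of 30, with 6 at an unadjusted p below 0.05 and a smallest adjusted p of 0.0903 (OsIAA31, -1.82 ± 0.456), and 0.582% of all probes were called (0.999% of those well above background in a group). With slide as a block, each 481-B drought array sharing its slide with a well-watered one, 2 were called in 481-B, OsIAA22 (-1.12 ± 0.196, limma adjusted p = 0.0163) and OsIAA31 (-1.82 ± 0.375, limma adjusted p = 0.0394). The shares of all probes given above are without this block, and none is given here with it. In Vandana 2 fell (6.67%, against 1.7% of all probes, 0.499% lower, and 2.92% of those well above background in a group), OsIAA22 (-1.47 ± 0.30, limma adjusted p = 0.0221) and OsIAA31 (-2.10 ± 0.456, limma adjusted p = 0.0275). By the rule in the study's methods no member was called in IR64, OsNAM Event 2 or Vandana, where 0.301%, 0.291% and 0.134% of all probes were. Without the Vandana array that did not match its label, the limma adjusted p-values of OsIAA22 and OsIAA31 in Vandana were 0.061 and 0.0649 and no member was called there. Leaving out Vandana well watered replicate 3 or Vandana drought replicate 1 ended both calls too. In OsNAM Event 2 the 7 calls became 3 without drought replicate 1 or drought replicate 3, and 2 without well watered replicate 1.

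Differences in count between genotypes do not show that their responses differed, so the responses were compared directly. An F test over the 4 drought responses called 0 of 30 Aux/IAA probes (limma, 0 also at an unadjusted p below 0.05, smallest adjusted p = 1) and 0.00756% of all probes. OsNAM Event 2 and IR64 differed in response by -1.84 ± 0.961 (OsIAA14) to 0.94 ± 1.12 (OsIAA9), and limma called 0 members and 0% of all probes, with 0 members at an unadjusted p below 0.05. 481-B and Vandana differed in response by -1.26 ± 1.02 (OsIAA18) to 0.79 ± 0.905 (OsIAA27), with 0 members called, 0 at an unadjusted p below 0.05 and 0.00189% of all probes called. Without the array that did not match its label these bounds were -1.77 ± 1.05 (OsIAA18) and 0.70 ± 0.571 (OsIAA11), again with 0 called and 0 at an unadjusted p below 0.05, as in the F test. Ranges here and in the comparisons between lines cover the members with an array well above background in every group compared (24 to 27 of 30). With SEs of up to 1.12, differences of 2-fold in the response of such a member could not be told from 0.

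The transgene and the introgressed segment can also be read within each treatment. Under drought OsNAM Event 2 minus IR64 ran from -0.65 ± 0.64 (OsIAA14) to 0.68 ± 0.745 (OsIAA9), and limma called 0 members (0 at an unadjusted p below 0.05) and 0% of all probes. When both were well watered the range was -0.93 ± 0.608 (OsIAA8) to 1.52 ± 0.622 (OsIAA16, adjusted p = 0.721), with 0 members called, 1 at an unadjusted p below 0.05, and 0.0113% of all probes called. OsIAA16 read 6.16 and 6.06 in well-watered OsNAM Event 2 and 4.0, 4.79 and 4.98 in IR64. It was picked as the widest of the members, in a comparison of 2 against 3 arrays. Under drought 481-B minus Vandana ran from -0.63 ± 0.568 (OsIAA26) to 1.07 ± 0.626 (OsIAA24), with 0 members called, 0 at an unadjusted p below 0.05, and 0.00567% of all probes called. All 7 green tissue genes read higher in 481-B in this comparison (median 3.61, 3 at an unadjusted p below 0.05 and 0 called), and without 481-B drought replicate 3, the array with the highest sum of them, OsIAA24 stood at 0.10 ± 0.476. Well watered, the range was -0.69 ± 0.556 (OsIAA16) to 0.86 ± 0.745 (OsIAA9), again with 0 called, 0 at an unadjusted p below 0.05, and 0.00189% of all probes called. That comparison includes the array that did not match its label, and without it the range was -0.81 ± 0.623 (OsIAA26) to 1.52 ± 0.776 (OsIAA9), with 0 members called by limma and 1 at an unadjusted p below 0.05, a probe not well above background. Both OsIAA9 bounds include Vandana well watered replicate 3, where that probe read 1.46 and was not well above background.

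**Figure D4:**
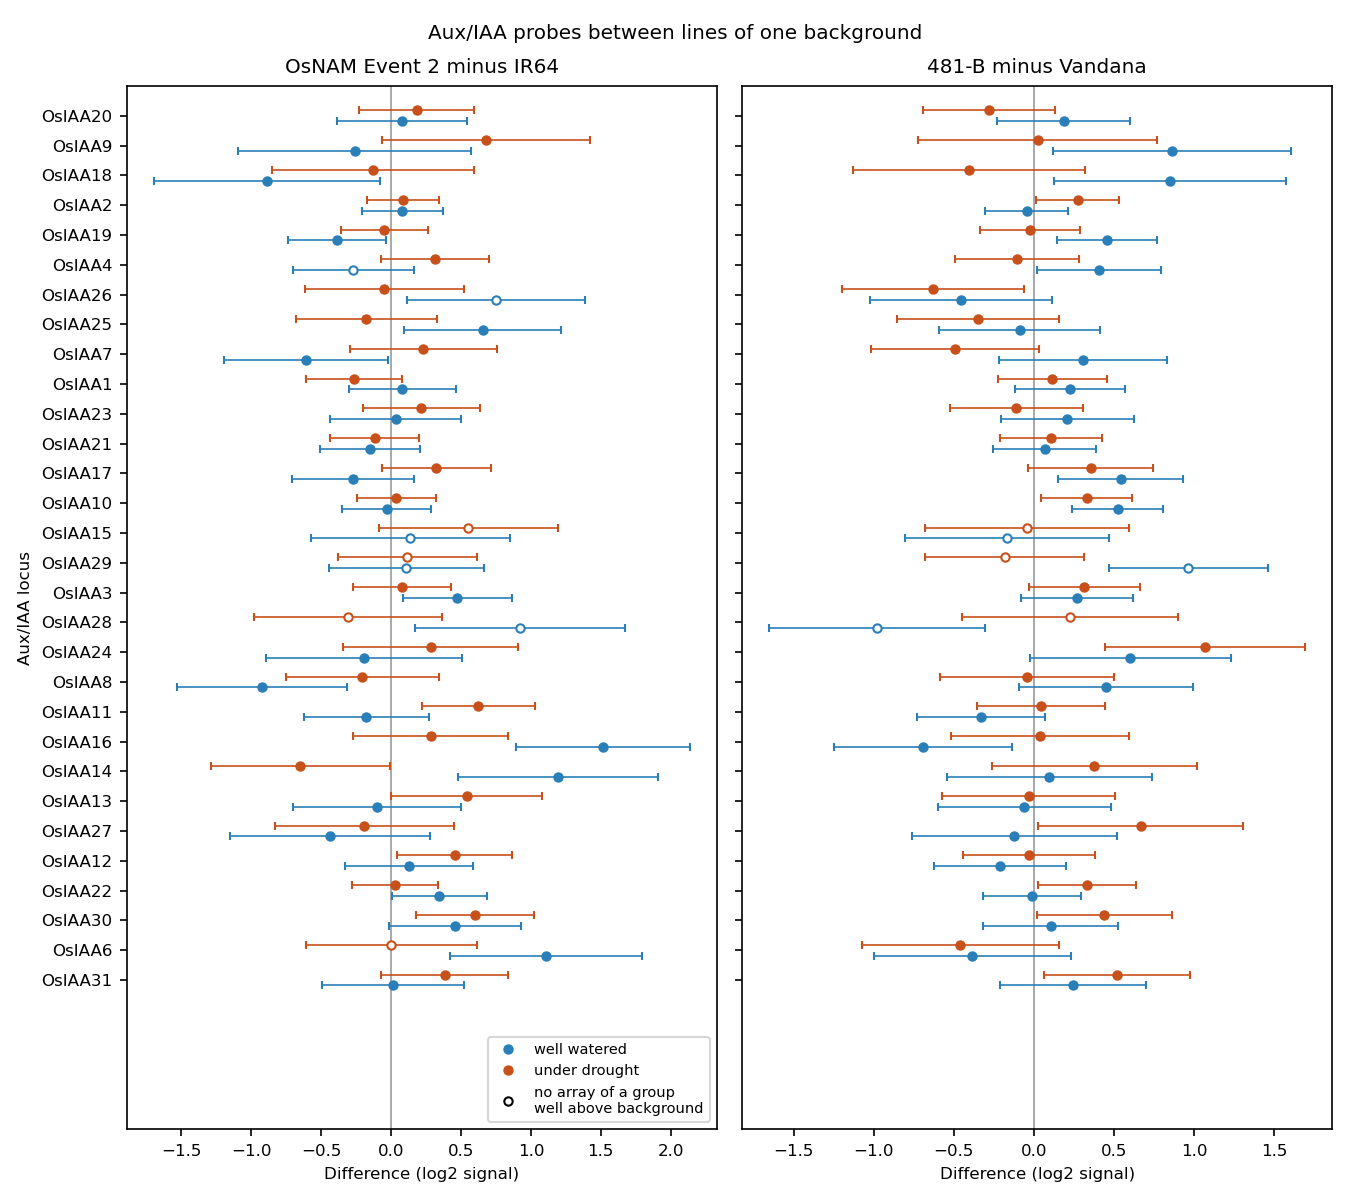
Difference (log2 signal, bars are the SE) of OsNAM Event 2 from IR64 and of 481-B from Vandana for each of the 30 Aux/IAA probes, well watered (blue) and under drought (orange), with open symbols where no array of 1 of the groups was well above background, so that the value is no measured difference. None was called, the widest measured one being OsIAA16 at 1.52 in well-watered OsNAM Event 2.

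Between the 2 backgrounds under drought, 4 members had an unadjusted p below 0.05 and 0 were called by limma, while 3.5% of all probes were. OsIAA20 was 0.88 ± 0.292 and OsIAA9 1.51 ± 0.527 higher in the IR64 background (IR64 and OsNAM Event 2) than in the Vandana background (481-B and Vandana), with adjusted p-values of 0.139 and 0.167. By the same contrast OsIAA31 read -0.80 ± 0.322 and OsIAA30 -0.67 ± 0.299, with adjusted p-values of 0.272 and 0.355. For OsIAA20 the 6 drought arrays of the IR64 background (8.51 to 9.49) were all above the 6 of the Vandana background (7.50 to 8.38). The share of all probes separated in this way is not given here. Other settings added calls here: OsIAA9 with the 75th percentile shift (limma adjusted p = 0.0309), OsIAA9 and OsIAA20 with normexp (0.0151 and 0.0433) and OsIAA20 with only the arrays compared (0.0349), and 0 to 1 members were called with 1 array left out. Green tissue genes had a median of -1.52 in this contrast, 4 of 7 at an unadjusted p below 0.05, and their part was not tested. Well watered, 0 members were called by limma and 1 had an unadjusted p below 0.05 (OsIAA26, adjusted p = 0.304), and 1.54% of all probes were called. In the response to drought 0 were called and 1 had an unadjusted p below 0.05 (OsIAA26 again), and 0.0246% of all probes were called. OsIAA26 was not well above background on any well-watered array of the IR64 background, so no size is given for it. Each of these 3 counts of calls was also 0 without the array that did not match its label.

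The partners of the Aux/IAA proteins in auxin signalling were read in the same comparison, drought over the mean of 4 genotypes, where 26.5% of all probes and 43.7% of those well above background in a group were called. Among 5 TIR1/AFB receptors (40% called), OsTIR1 (0.65 ± 0.135, limma adjusted p = 0.0018) and OsAFB3 (0.39 ± 0.0812, limma adjusted p = 0.00197) rose, and OsAFB2, OsAFB4 and OsAFB5 lay between -0.11 and 0.13 with no call. Among 25 ARF genes 10 rose and 2 fell (48.0% called, near the share of probes well above background). The largest rises were OsARF14 (2.00 ± 0.272), OsARF2 (1.72 ± 0.229) and OsARF24 (1.70 ± 0.462), and the falls were OsARF7 (-1.28 ± 0.201) and OsARF8 (-0.70 ± 0.161). OsARF14, OsARF2 and OsARF24 were well above background on 18, 19 and 17 of 23 arrays, so these sizes rest in part on values that were not. The median over the ARF probes was 0.39, against -0.06 over all probes. Among 13 GH3 genes, whose enzymes join auxin or jasmonate to amino acids, OsGH3-3 rose (0.75 ± 0.204) and 5 fell (46.2% called), led by OsGH3-13 (-1.14 ± 0.244), OsGH3-9 (-0.89 ± 0.218) and OsGH3-10 (-0.84 ± 0.275). The median over the GH3 probes was -0.46, and OsGH3-10 was well above background on only 14 of 23 arrays. Without the array that did not match its label 5 GH3 genes were called, 1 higher and 4 lower, and the counts for receptors and ARFs were as given.

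Within single genotypes, partner genes were called in IR64 and OsNAM Event 2. In IR64 and in OsNAM Event 2 there were 5 ARF calls each (20.0% of 25). Of all probes 4.99% and 8.16% were called there, and of those well above background in a group 8.42% and 13.3%. OsARF2, OsARF3, OsARF14 and OsARF23 rose in both, OsARF8 fell in IR64 (-1.15 ± 0.313) and OsARF7 fell in OsNAM Event 2 (-1.88 ± 0.437). OsARF2, OsARF3 and OsARF14 were well above background on 19, 19 and 18 of 23 arrays. OsGH3-13 fell in OsNAM Event 2 (-1.98 ± 0.529), the only GH3 call there (7.69% of 13). No receptor, ARF or GH3 gene was called by limma in 481-B or Vandana, with 0, 2 and 1 of them at an unadjusted p below 0.05 in 481-B and 2, 6 and 3 in Vandana. OsARF14 was lower in the IR64 than in the Vandana background when well watered (-1.72 ± 0.395, limma adjusted p = 0.0336), which ended without the array that did not match its label, and it was the only partner gene called in a comparison between lines or backgrounds.

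**Figure D5:**
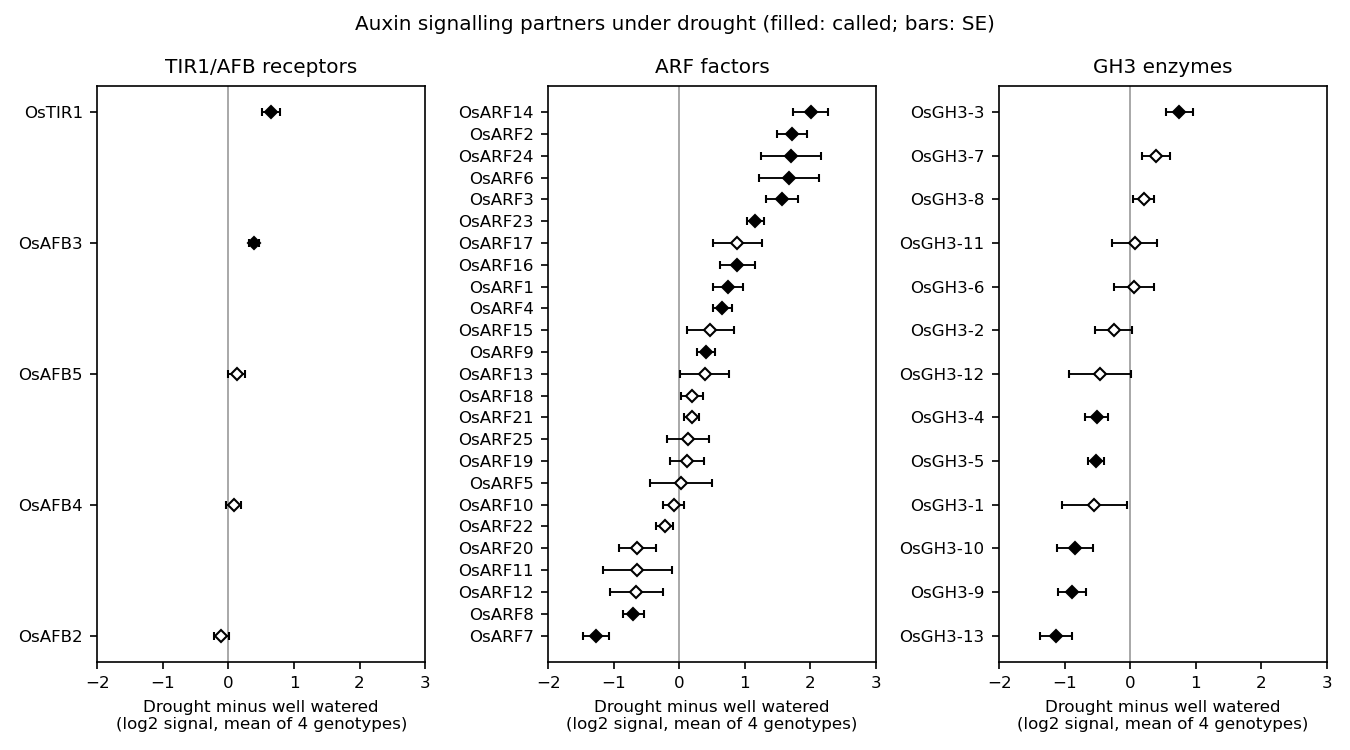
Drought minus well-watered signal (log2, mean of 4 genotypes, bars are the SE, filled where called) for 5 TIR1/AFB receptors, 25 ARF factors and 13 GH3 enzymes. OsARF14 (2.00) is the highest and OsARF7 (-1.28) the lowest.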

How the data were processed

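Root RNA was hybridised to a custom 1-colour Agilent rice array. The authors deposited scanner files from Agilent Feature Extraction (11.0 per the labels, 11.5.1.1 per the file headers) with intensity values, and a table of log2 values, which was used as an alternative. Probes carry gene locus names from the array design. In these scanner files, control and outlier spots were removed, intensity (processed signal) was taken to log2 and spots of 1 probe were averaged. The probe values were then quantile normalized, the normalization that the authors name. A model with a mean per genotype and treatment was fitted to 23 arrays with limma 3.58.1 in R 4.3.3, and p-values were adjusted over all probes. Tests were two-sided. The number of arrays limits the precision. Alternatives were a shift to the 75th percentile, normexp with an offset of 50 (on median spot signals, mean signals not being used here), a filter on dim probes, replicate number or slide as a block, the deposited log2 table, the methods' call rule (more than 2-fold, Bonferroni), only the arrays compared, and each array left out. The fit was tested on simulated data. Values on every array are given for the 5 largest rises and the 5 largest falls and for OsIAA6, OsIAA11, OsIAA13, OsIAA18, OsIAA20 and OsIAA23. The members and gene lists were chosen with earlier results of these data known. Replicate numbers did not pair the arrays (3 of 11 same-numbered pairs of deviations correlated above 0.1, range -0.373 to 0.339). Slides (4, which are also the scans) held several groups each, but slide 4 held only 1 array of droughted Vandana and 1 of well-watered IR64. The authors report a pilot study that served to leave out oligos prone to cross-hybridise within gene families. Whether the probes used separate close family members was not tested here, and probe sequences were not used.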

Additional observations from a re-analysis of the deposited data

How the results depend on the processing

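Of 15 members called for the mean of 4 genotypes, 11 kept their call in every fit that left out 1 array, OsIAA14, OsIAA16, OsIAA18 and OsIAA27 being the exceptions. No call changed sign under any alternative. The number of members called was 11 to 16 with 1 array left out, 4 to 8 in IR64 (6 with all arrays), 2 to 9 in OsNAM Event 2 (7), 0 to 1 in 481-B (0), 0 to 4 in Vandana (2), and 0 to 1 between backgrounds under drought or well watered (0). By the methods' rule 4 members were called for the mean and 0 in IR64, in OsNAM Event 2 and in Vandana. With only the arrays compared 0 were called in IR64, 2 in OsNAM Event 2, 0 in Vandana and 1 between backgrounds under drought (OsIAA20). The 75th percentile shift gave 16 for the mean (5 higher, 11 lower), 0 in Vandana and 1 between backgrounds under drought (OsIAA9). Normexp gave 4 in Vandana and 2 between backgrounds under drought (OsIAA9 and OsIAA20), the dim filter 4 in Vandana, and slide as a block 2 in 481-B (OsIAA22 and OsIAA31). The calls gained in Vandana were OsIAA20 and OsIAA30. The cause was not tested. Except for the methods' rule, the alternatives are given without the share of all probes called. The 75th percentile shift moved the median of all probes by -0.62 for the mean, -0.48 in IR64, -1.12 in OsNAM Event 2, -0.03 in 481-B and -0.57 in Vandana. Relative to that median the 15 members kept their direction, from -1.68 (OsIAA31) to 2.39 (OsIAA20). Of the falls, OsIAA12 (-0.386), OsIAA13 (-0.244), OsIAA14 (-0.342) and OsIAA16 (-0.448) lay closest to it. OsIAA4 lost its call (limma adjusted p = 0.0741). OsIAA8 (-0.234) and OsIAA11 (-0.111) gained calls as lower, and both lay close to that median. With replicate number as a block, 14 members were called for the mean (OsIAA14 lost), 6 in IR64, 7 in OsNAM Event 2 and 3 in Vandana. With slide as a block 16 were called for the mean, and all 15 called members had the same direction within each of the 4 slides. In slide 4 that direction compares 1 droughted Vandana array with 1 well-watered IR64 array, so it mixes genotype with treatment. Comparisons of 2 or 3 arrays have SEs of up to 0.833 within a genotype, which limits what could be called.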
